A study of Rattus norvegicus with 65 samples.

Results

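Hypothalami of rats that received liraglutide on top of PYY3-36 were compared with hypothalami of rats that received PYY3-36 alone. The comparison took 9 of the 65 libraries of the series, 5 of the PYY3-36 + liraglutide group (replicates 6 to 10) and 4 of the PYY3-36 group (replicates 1 to 4), all of experimental batch B, and covered every gene that passed a filter on low counts, which left 20628 of 38513. The series measured mRNA of whole hypothalamus in rats after bypass surgery, food restriction or gut hormone treatment. All animals used here were male Wistar rats, 9 to 10 weeks old at the start, made obese by 6 weeks of high-fat feeding and then offered a choice of high-fat and low-fat diets. Both groups received PYY3-36 at 0.1 mg/kg/day through a subcutaneous osmotic minipump. The PYY3-36 + liraglutide group also received liraglutide at 0.4 mg/kg/day by subcutaneous injection, while the PYY3-36 group was injected with saline. Tissue was taken after 4 weeks of treatment and 10 h of fasting. Of 5 animals assigned to PYY3-36 alone, 1 was left out by the authors after a failed RNA extraction. The treatments thus differed in liraglutide only. Per the paper, animals of the group without liraglutide gained weight, while those given both drugs ate less and lost weight. The part of body weight and food intake in the results was not tested. The animals were also obese by diet, and the drugs reached the whole body. The whole hypothalamus was pooled into 1 library per animal. Fewer cells of a type and less RNA per cell therefore cannot be told apart. Liraglutide alone and saline, with 5 libraries each in the same batch, served to compare the change with liraglutide in the absence of PYY3-36. The tests drew their measure of spread from all 28 libraries of batch B, which also included rats after bypass surgery or sham operation.

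Liraglutide is a stable analogue of glucagon-like peptide-1 (GLP-1) and acts on the GLP-1 receptor, which couples to cAMP. PYY3-36 is a fragment of the gut hormone peptide YY and acts mainly on the inhibitory Y2 receptor of neuropeptide Y. Both are released or mimicked as satiety signals and reach, among other sites, the arcuate nucleus at the base of the hypothalamus, where neurons making AgRP and NPY promote feeding and neurons making POMC and CART restrain it.

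The libraries held 21975227 to 35011146 counts on genes. Of the transcription factors of hypothalamic nuclei, 24 of 24 passed the filter, among them Nkx2-1, Sim1, Otp and Nr5a1. So did 12 of 12 markers of cortex and hippocampus and 12 of 12 of striatum, so passing the filter cannot check the tissue label. The libraries differed in what else they held. PYY3-36 replicate 2 stood apart: its median rank correlation with its own group was 0.963, against 0.974 for PYY3-36 + liraglutide replicate 10 and 0.978 to 0.987 for the other libraries. On the scale of mean log2(CPM + 1) over a marker list, PYY3-36 replicate 2 had the lowest score of hypothalamic nuclei (1.09, the others 1.72 to 2.81) and the highest score of cortex and hippocampus (5.18, the others 2.94 to 4.09).

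Markers of tissue around the hypothalamus moved with the groups. The score of 10 meningeal markers was 6.06, 4.20, 5.70 and 5.91 in PYY3-36 replicates 1 to 4 and 3.06, 2.85, 3.45, 4.25 and 2.89 in PYY3-36 + liraglutide replicates 6 to 10, so that only PYY3-36 replicate 2 lay within the range of the other group. Their median log2 fold change (PYY3-36 + liraglutide minus PYY3-36) was -2.53, against 0.028 over all genes tested. Igf2, a growth factor made in large amounts by the meninges, had a mean normalized count of 1706 ± 702 (SD, n = 5) with and 9869 ± 4137 (n = 4) without liraglutide. Pituitary hormone genes were highest in PYY3-36 replicates 1 and 3. Of 10 pituitary markers 7 were tested, and their summed normalized count was 3532 and 9877 in these libraries, 234 and 50.3 in PYY3-36 replicates 2 and 4, and 14.01 to 149 in the PYY3-36 + liraglutide group. The sum was 30.4 to 6958 with liraglutide alone and 33.8 to 100 with saline. The score of 12 striatal markers ran from 3.60 to 5.62 in the PYY3-36 group and from 3.73 to 6.51 in the PYY3-36 + liraglutide group, where replicate 10 was lowest and the other replicates lay at or above 5.66. Of 12 markers of tanycytes and ependyma 10 were lower and 2 higher, with a median log2 fold change of -1.65. At an unadjusted p under 0.05, 6 were lower (50%, against 10.5% of all genes). Of 10 choroid plexus markers 9 were lower and 1 higher (median -1.20), 3 of them lower at that threshold. The scores of both lists overlapped between the groups. Neuronal and astrocytic scores did not overlap between the groups: 10 neuronal markers gave 8.64 to 8.83 in the PYY3-36 group and 8.90 to 9.20 in the other, and 10 astrocytic markers gave 8.50 to 8.71 and 8.09 to 8.31. The astrocytic markers were uneven, with 8 lower, 2 higher and a median log2 fold change of -0.18. At an unadjusted p under 0.05, 4 were lower. Gfap had -1.42 and Aldh1l1 -0.84, while Slc1a3 had -0.07 and Slc1a2 0.01. The part of these marker lists in the results was not tested beyond fits that took the scores of choroid plexus, meninges, habenula and striatum as covariates.

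**Figure D1:**
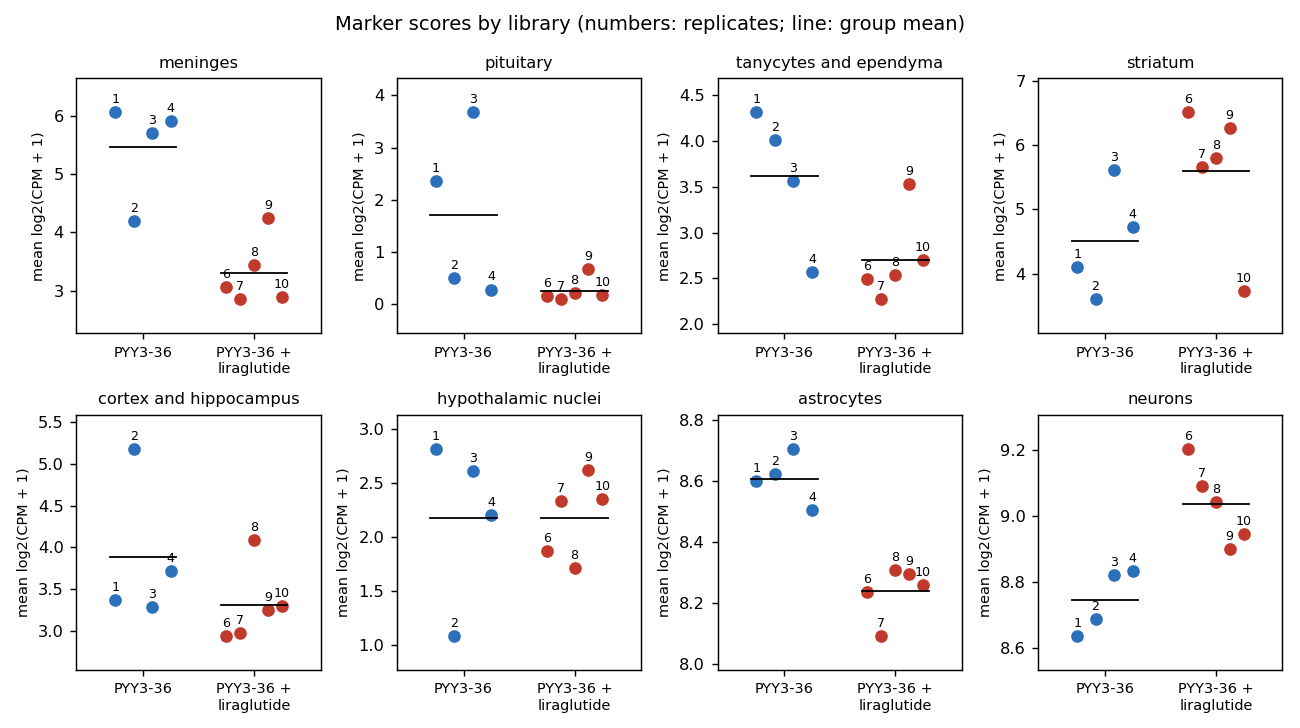
Marker scores of the 9 libraries as mean log2(CPM + 1), 1 panel per marker list, with 1 point per library labelled by its replicate number and a line at the group mean. The meningeal score was higher in the PYY3-36 group, with replicate 2 lowest at 4.20. The neuronal score was higher and the astrocytic score lower in the PYY3-36 + liraglutide group, and the pituitary score stood out in PYY3-36 replicates 1 and 3.

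Few genes passed the test. With liraglutide, the GABA-synthesizing enzyme Gad1, the vesicular GABA transporter Slc32a1 and the long noncoding RNA LOC102550503 rose, and 12 genes fell, among them the cell cycle inhibitor Cdkn1c, the phospholipid-binding protein Anxa5, the sterol 27-hydroxylase Cyp27a1 and the oxysterol receptor Gpr183. A gene counted as called when its log2 fold change exceeded 1 in either direction and its adjusted p was below 0.05 in edgeR's quasi-likelihood test with Benjamini-Hochberg adjustment. This held for 15 of 20628 genes (0.0727%), 3 higher (0.0145%) and 12 lower (0.0582%). Without the threshold on the fold change, 35 genes passed (0.170%), 11 higher (0.0533%) and 24 lower (0.116%). At an unadjusted p under 0.05 there were 1703 higher (8.26%) and 2159 lower (10.5%). The smallest adjusted p was 0.0240, and the last gene inside the threshold, P4htm, had 0.0479 and the first outside, Pbxip1, 0.0516.

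These counts depended on single libraries and on the test. No gene was called without PYY3-36 + liraglutide replicate 6, without its replicate 7 or without PYY3-36 replicate 2, although 3508, 3101 and 2303 genes then had an unadjusted p under 0.05, while 123 were called without PYY3-36 replicate 4. DESeq2 called 329 genes and limma voom 520, against 0 with the meningeal score as a covariate. The same edgeR test on only the 9 libraries, without the other groups of batch B, called 244. In the fit of all 65 libraries with a term for batch, LOC102550503 alone was called.

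**Figure D2:**
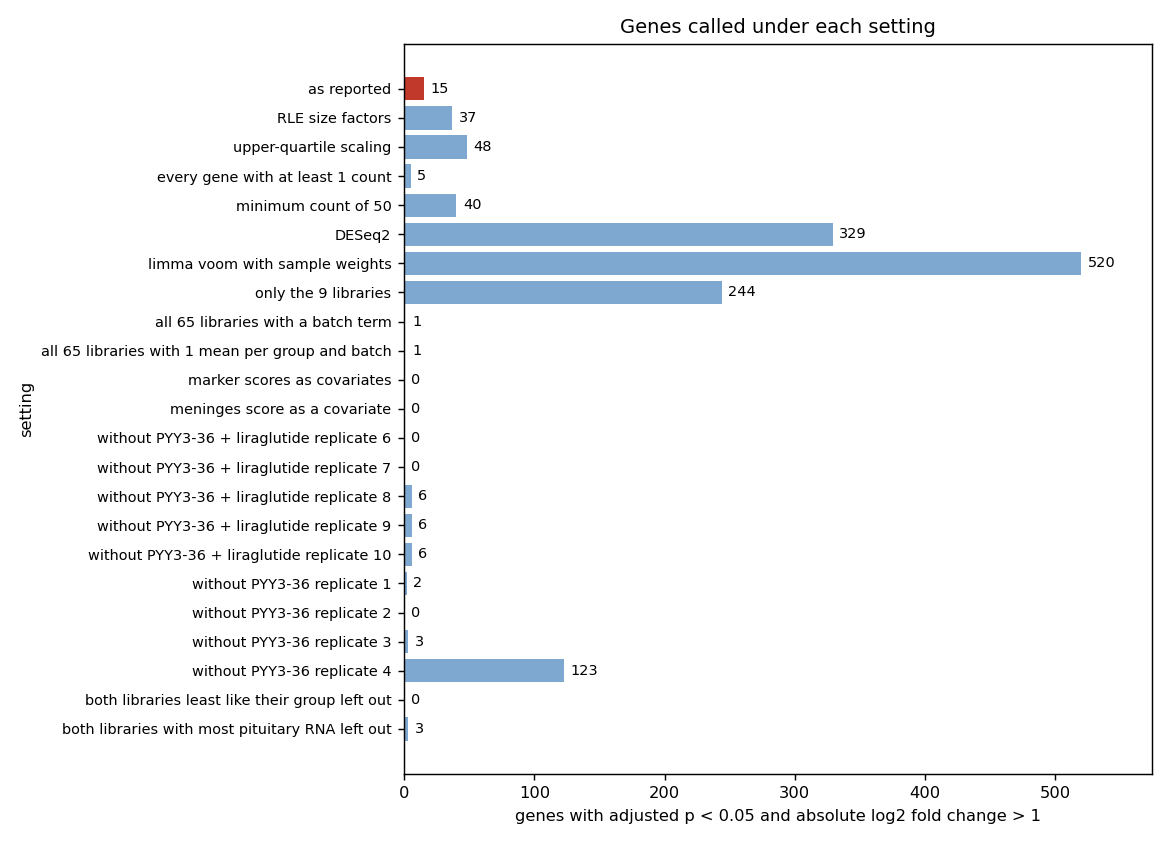
Number of genes called (log2 fold change beyond 1 either way, adjusted p below 0.05) as reported and under each of 22 alternative settings, as bars from 0. The count ran from 0 to 520, against 15 as reported.

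The sequences upstream of 4 called genes are shown because LOC102550503 passed the adjusted p in more alternatives than any other gene of this comparison, Gad1 and Slc32a1 rose together and belong to the same neurons, and Gpr183 had the largest difference between the effects of liraglutide with and without PYY3-36 among the 6 genes in which that difference passed the adjusted p. Each run gives the 250 bases before the start site from RefSeq on the build GRCr8, 5′ to 3′ on the gene's strand. Capitals mark matches, on either strand, to 8 short motifs that were chosen after the results were known.
LOC102550503, chr16:7558586-7558835, plus strand: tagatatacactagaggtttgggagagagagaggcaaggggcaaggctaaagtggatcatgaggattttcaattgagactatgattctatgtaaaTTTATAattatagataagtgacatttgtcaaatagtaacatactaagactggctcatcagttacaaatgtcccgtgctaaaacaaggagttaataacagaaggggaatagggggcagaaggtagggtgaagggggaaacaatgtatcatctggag
Gad1, chr3:75777202-75777451, plus strand: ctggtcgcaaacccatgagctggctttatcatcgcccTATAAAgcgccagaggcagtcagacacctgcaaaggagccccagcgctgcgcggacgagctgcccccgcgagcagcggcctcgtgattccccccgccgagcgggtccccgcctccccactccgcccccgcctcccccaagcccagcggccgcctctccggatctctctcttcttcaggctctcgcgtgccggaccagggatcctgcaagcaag
Slc32a1, chr3:167686995-167687244, plus strand: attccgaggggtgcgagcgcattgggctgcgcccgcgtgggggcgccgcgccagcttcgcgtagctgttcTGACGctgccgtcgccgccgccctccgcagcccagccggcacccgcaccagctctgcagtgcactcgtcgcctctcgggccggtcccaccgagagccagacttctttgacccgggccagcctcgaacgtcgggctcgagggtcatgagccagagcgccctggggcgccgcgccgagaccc
Gpr183, chr15:105457127-105457376, minus strand: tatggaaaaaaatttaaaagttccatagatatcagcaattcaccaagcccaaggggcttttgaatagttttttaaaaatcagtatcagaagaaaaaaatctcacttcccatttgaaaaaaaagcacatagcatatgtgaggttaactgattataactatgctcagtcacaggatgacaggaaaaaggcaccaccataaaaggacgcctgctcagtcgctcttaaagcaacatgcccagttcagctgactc

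The full cAMP response element TGACGTCA, the site of the factor that the GLP-1 receptor pathway activates, was in 0 of the 7 promoters found for the genes that rose and 0 of the 21 found for those that fell at an adjusted p under 0.05, and in 2.51% of the promoters of 13886 genes tested. Its shorter form TGACG was in 3 of 7, 5 of 21 and 25.2%, and the full element contains it. A TATA box (TATAAA) was in 2 of 7 and 2 of 21, against 7.78%. The core of the NRF1 site was in 10 of the 63 promoters found for genes of oxidative phosphorylation and in 7.30% of all. The sterol element TCACNCCAC was in 0 of 14 promoters of the list of cholesterol and fatty acid synthesis and in 0.994% of all. The AP-1 element TGANTCA was in 4.79% of all, part of the RE1 site, TTCAGCACC, in 0.396% and the element of estrogen-related receptors TCAAGGTCA in 0.274%. Among the 28 promoters of genes past the adjusted p, that part of the RE1 site was in 1 and the AP-1 and estrogen-related receptor elements were in 0.

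LOC102550503, a long noncoding RNA gene on chromosome 16 (8466963 to 8469867 of Rnor_6.0), had normalized counts of 49.6, 61.6, 90.4, 45.3 and 45.8 in PYY3-36 + liraglutide replicates 6 to 10 and of 11.1, 0, 2.84 and 3.35 in PYY3-36 replicates 1 to 4. The groups did not overlap, and every animal on PYY3-36 alone was below every animal of the liraglutide group (mean 39.8) and the saline group (mean 34.2). Its log2 fold change was 3.71 ± 0.61 (SE, adjusted p = 0.0240). It kept an adjusted p under 0.05 in 15 of 22 alternatives, 5 of 9 fits that left out 1 library among them, and had 0.0953 without PYY3-36 replicate 2, 0.0124 in the fit of all 65 libraries and 0.184 with the meningeal score as a covariate, where its log2 fold change was 3.81.

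Gad1 (chromosome 3, 56861440 to 56902139) makes GABA from glutamate. Its normalized counts were 16706, 14726, 14676, 14040 and 10316 with and 6456, 5530, 7144 and 8609 without liraglutide, and the groups did not overlap, with PYY3-36 + liraglutide replicate 10 lowest in its group. The log2 fold change was 1.04 ± 0.22 (adjusted p = 0.0465). Slc32a1 (chromosome 3, 155102980 to 155107815) loads GABA and glycine into vesicles. It had 7459, 7730, 6981, 5814 and 3974 against 2476, 1979, 3285 and 3991, and only replicate 10 of the PYY3-36 + liraglutide group, at 3974, lay below the highest animal on PYY3-36 alone, at 3991. Its log2 fold change was 1.14 ± 0.24 (adjusted p = 0.0465). Gad2, the other GABA-synthesizing enzyme, had means of 3258 and 1554 and missed the threshold (log2 fold change 1.09, adjusted p = 0.161). Replicate 10 was also the animal with the lowest striatal score, a region made up mostly of GABA neurons, and the part of striatal RNA in this result was not tested. With the meningeal score as a covariate the log2 fold change of Gad1 was 0.86 (adjusted p = 0.376), and with the scores of choroid plexus, meninges, habenula and striatum together it was 0.51 (adjusted p = 0.740).

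The list of GABA and glutamate receptors and transporters held these genes. Of its 40 members 34 were higher with liraglutide, their median log2 fold change was 0.42 (all genes 0.028), 12 were higher (8.26% of all genes were) and 0 lower at an unadjusted p under 0.05, and 2 passed the adjusted p by edgeR, 4 by DESeq2 and 13 by limma voom. Next to Gad1 and Slc32a1 by p stood Grm7, a presynaptic glutamate receptor (1328 ± 90.8 vs. 956 ± 175, adjusted p = 0.0591), and Gabrb2, a subunit of the GABA-A receptor (5711 ± 953 vs. 3366 ± 1508, adjusted p = 0.0804). Grm7 did not overlap between the groups, and Gabrb2 did, through PYY3-36 replicate 4. The neuronal score was higher in the same animals.

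Anxa5, which binds phosphatidylserine, had 1428, 1049, 1661, 1771 and 1252 normalized counts with and 3704, 3224, 3032 and 2454 without liraglutide. The groups did not overlap, and its log2 fold change was -1.10 ± 0.21 (adjusted p = 0.0465). Cdkn1c, an imprinted inhibitor of cyclin-dependent kinases, had 135, 199, 139, 197 and 219 against 875, 477, 618 and 623, a log2 fold change of -1.85 ± 0.38 (adjusted p = 0.0465). Cyp27a1, which makes 27-hydroxycholesterol, had 98.1, 94.3, 97.3, 53.9 and 82.0 against 290, 277, 233 and 210, a log2 fold change of -1.55 ± 0.32 (adjusted p = 0.0465). In these genes and in Anxa5 the lowest animal on PYY3-36 alone was above the highest animal with liraglutide.

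Gpr183 (chromosome 15, 108364701 to 108376221), a receptor for oxysterols that guides immune cells, was a low-count gene, with 12.1, 6.54, 10.8, 11.8 and 12.8 with and 48.3, 42.1, 47.3 and 38.5 without liraglutide. It fell without overlap, by 2.0 ± 0.42 in log2 units (adjusted p = 0.0465). Cd48, a surface protein of leukocytes, fell by 1.0 on the log2 scale (461 ± 103 vs. 937 ± 299, adjusted p = 0.0465), while the leukocyte marker Ptprc stood at 86.8 ± 6.83 and 127 ± 33.3. Rab7b, a small GTPase of late endosomes, fell by 1.12 (210 ± 46.5 vs. 464 ± 132, adjusted p = 0.0244). It kept an adjusted p under 0.05 in 14 of 22 alternatives.

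The other called genes were Pxdc1, which fell by 1.04 on the log2 scale (191 ± 36.8 vs. 400 ± 89.1, adjusted p = 0.0240), Ccdc102a (68.9 ± 11.2 vs. 149 ± 55.3), Olfml2b (205 ± 56.1 vs. 551 ± 144), Asprv1 (10.1 ± 3.25 vs. 42.7 ± 28.7) and RGD1560925 (11.3 ± 7.70 vs. 53.5 ± 18.8). Each of them was lower in all 5 animals with liraglutide than in all 4 without, as 969 genes were (4.70%). Gh1, growth hormone of the pituitary, was called too, but on 1 library: PYY3-36 replicate 3 had 7302 normalized counts and the other 8 libraries 0 to 9.22, and its adjusted p without that library was 0.420.

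With the meningeal score as a covariate the log2 fold changes of Anxa5, Cyp27a1 and Cdkn1c were -0.60, -0.81 and -0.79, while those of Rab7b, Ccdc102a and Asprv1 were -1.06, -1.11 and -2.27, and none of the called genes had an adjusted p under 0.05 in that fit. The score came from the same counts and nearly separated the groups. A fit with this covariate therefore cannot tell meningeal RNA and treatment apart.

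**Figure D3:**
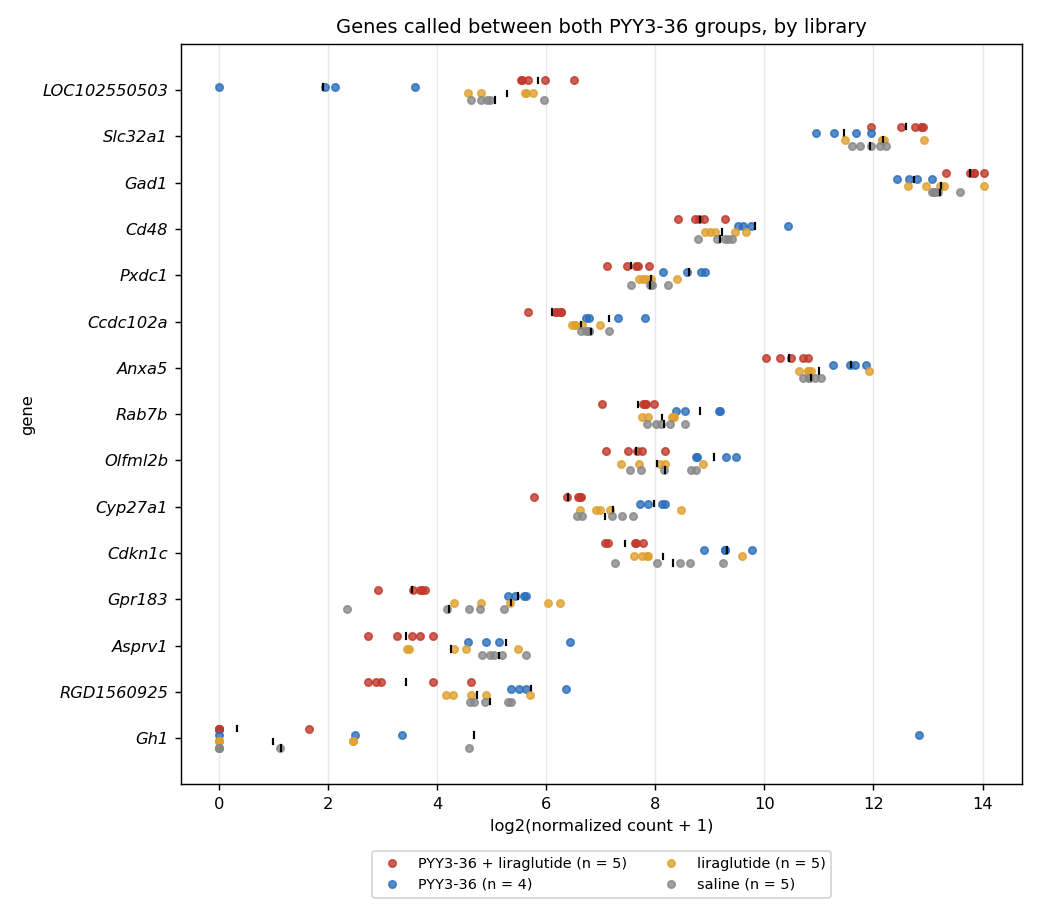
log2(normalized count + 1) of the 15 called genes, 1 point per library, in the PYY3-36 + liraglutide, PYY3-36, liraglutide and saline groups of batch B, with a black tick at the mean of each group. In LOC102550503 the 4 animals on PYY3-36 alone sit between 0 and 11.1 normalized counts and all 15 other animals above them, and in Gh1 a single animal on PYY3-36 alone stands at 7302.

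A further 20 genes passed the adjusted p with a smaller fold change. Of these, 8 rose, among them Apoo, a protein of the mitochondrial inner membrane (1205 ± 123 vs. 862 ± 63.4, log2 fold change 0.50), Nrxn3, a presynaptic adhesion protein (4782 ± 505 vs. 2953 ± 545, 0.71), Pianp (4985 ± 217 vs. 3192 ± 782, 0.66), Casd1, which acetylates sialic acid (0.48), and P4htm, a prolyl hydroxylase (0.34), with Rpp25 (0.84), LOC102548847 (0.68) and LOC103692811 (0.79). The 12 that fell included Itgb1, the integrin beta-1 chain (2225 ± 213 vs. 3312 ± 213, log2 fold change -0.55), Ackr3, a scavenging chemokine receptor (275 ± 38.7 vs. 459 ± 15.7, -0.72), Eef2k, the kinase of elongation factor 2 (575 ± 74.1 vs. 892 ± 180, -0.61), and Lpcat3, which remodels phospholipids (-0.59). The others were Ctdsp1, Myo1e, Pttg1ip, Tulp3, Fam189a2, Cyp4v3, Smpdl3a and Nf1x, with log2 fold changes from -0.99 to -0.47. Of the 35 genes, which the same contrast had chosen, 32 did not overlap between the groups, while of all genes 2.55% lay wholly above and 4.70% wholly below.

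The mean of the saline group lay between both group means in 35 of these 35 genes, as it did in 40.3% of all genes tested. It was nearer to PYY3-36 + liraglutide on the log2 scale in 26 of them. The genes were chosen by the contrast itself, so these counts are a description.

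None of the receptors that the drugs act on passed the test. Of the 16 members of the PYY and GLP-1 receptor systems, 13 were tested, and 0 passed the adjusted p by edgeR or DESeq2 and 1, Dpp4, by limma voom. At an unadjusted p under 0.05 there was 1, also Dpp4, which was lower (7.69%, against 10.5% of all genes). Npy4r had at most 10 counts, and Ppy and Gcg had 0 in all 9 libraries, which allows up to 3 counts per library. Glp1r, the receptor of liraglutide, had 75.9, 83.1, 64.8, 50.6 and 42.6 normalized counts with and 165, 2.16, 95.6 and 52.0 without liraglutide, and the groups overlapped widely (log2 fold change -0.30 ± 0.66, adjusted p = 0.857). PYY3-36 replicate 2, at 2.16, held almost none of it. Npy2r, the receptor of PYY3-36, had 251, 359, 338, 267 and 243 against 297, 168, 255 and 232 (0.31 ± 0.35, adjusted p = 0.675).

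Npy1r and Npy5r, which mediate feeding by NPY, had log2 fold changes of 0.43 and 0.15. Dpp4, the protease that inactivates GLP-1 and turns peptide YY into PYY3-36, had 14.2, 17.7, 12.8, 33.5 and 25.5 against 87.3, 44.2, 98.4 and 84.6, without overlap (log2 fold change -1.89 ± 0.64, adjusted p = 0.125). With the meningeal score as a covariate its log2 fold change was -0.36. Calcr and Ramp1, Ramp2 and Ramp3, which form the calcitonin and amylin receptors, stood at 0.66, 0.72, 0.07 and 0.03, and Gipr, Gcgr, Glp2r and Pyy at -0.04, -1.23, -1.82 and 0.50, with adjusted p of 0.387 to 0.986.

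The neuropeptides of the arcuate nucleus varied more between animals than between groups. Pomc had 56.6, 210, 58.9, 765 and 120 normalized counts with and 4074, 71.2, 4068 and 106 without liraglutide. The animals at 4074 and 4068 were PYY3-36 replicates 1 and 3, those with the most pituitary RNA of the 9 libraries. The log2 fold change was -3.07 ± 1.24 (adjusted p = 0.190), against 1.47 without these animals. Agrp had 12.1, 6.54, 15.7, 42.1 and 16.0 against 236, 21.6, 108 and 3.35 (-2.27 ± 1.0, adjusted p = 0.225). It was highest in the same animals, PYY3-36 replicates 1 and 3, and its log2 fold change was 0.64 without them. The reason for the high counts in these animals was not tested. Npy had 403 ± 140 against 310 ± 35.9 (0.40), and Cartpt 2628 ± 1947 against 2392 ± 1945 (0.15), and neither passed the test.

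Of the 30 feeding peptides, their receptors and processing enzymes, 3 were higher and 6 lower at an unadjusted p under 0.05. These were 10% and 20%, against 8.26% and 10.5% of all genes. By the adjusted p, 0 passed by edgeR, against 2 higher and 2 lower by DESeq2 and by limma voom. The median of the list was -0.07. Without PYY3-36 replicate 1, 2 were lower and the median was 0.03, and without PYY3-36 replicates 1 and 3 together, 2 were lower and the median was 0.71. The satiety peptide Nts had 869, 1193, 1410, 1188 and 1200 against 355, 85.2, 340 and 869 (log2 fold change 1.52, adjusted p = 0.0992). Mc4r, the melanocortin receptor that restrains feeding, had 163, 279, 175, 212 and 103 against 42.7, 36.7, 54.9 and 150 (1.40, adjusted p = 0.111). The leptin receptor Lepr had 82.9, 47.6, 63.9, 65.1 and 40.4 against 193, 69.0, 202 and 225 (-1.50, adjusted p = 0.0999). In each of these 3 genes 1 animal on PYY3-36 alone overlapped the other group, replicate 4 for Nts and Mc4r and replicate 2 for Lepr. Prcp, an enzyme that inactivates alpha-MSH, did not overlap (283 ± 17.5 vs. 396 ± 23.7, -0.47, adjusted p = 0.105).

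Among the 17 other neuroendocrine peptide genes tested, the median log2 fold change was 0.50. At an unadjusted p under 0.05, 4 were higher and 1 lower (23.5% and 5.88%, against 8.26% and 10.5% of all genes). By the adjusted p, 0 passed by edgeR, and 3 were higher by DESeq2 and 2 by limma voom. The median was 0.096 without PYY3-36 replicate 2, 0.32 without PYY3-36 + liraglutide replicate 7, -0.048 without PYY3-36 replicate 2 and PYY3-36 + liraglutide replicate 10 together, and -0.065 by limma voom. Crh, which starts the stress axis, had 203, 196, 168, 246 and 325 with and 69.6, 31.3, 50.1 and 117 without liraglutide. The groups did not overlap, and the saline mean of 193 was near that of the animals with liraglutide. The log2 fold change was 1.77 ± 0.48, with an adjusted p of 0.0780 by edgeR, 0.00967 by DESeq2 and 0.0221 by limma voom. Chga, of the matrix of secretory granules, stood at 7994 ± 713 against 5555 ± 1343 (0.54, adjusted p = 0.0839). Gnrh1 (log2 fold change 2.67, adjusted p = 0.118) and Th (-2.76, adjusted p = 0.184) overlapped, and Th was high in PYY3-36 replicates 1 and 3 (4572 and 7199), as Pomc was.

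Genes with larger fold changes that came next by p, without passing the test, were Acot6 (33.2 ± 12.5 vs. 12.7 ± 2.98), Spin2a (56.0 ± 16.3 vs. 26.3 ± 10.2), Slc17a8, a vesicular glutamate transporter (260 ± 101 vs. 109 ± 26.6), Fibcd1 (218 ± 75.9 vs. 85.1 ± 25.5) and Cntnap3b (286 ± 68.8 vs. 144 ± 81.5), all higher with liraglutide. Fibcd1 and its copy Fibcd1l1 had identical counts, so that their reads cannot be told apart.

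Nuclear genes of oxidative phosphorylation encode the respiratory chain and ATP synthase. Their log2 fold change was positive in 75 of 75 members, as in 11054 of all 20628 genes, with a median of 0.23. At an unadjusted p under 0.05, 40 were higher (8.26% of all genes were) and 0 lower, 16 did not overlap between the groups, as did 527 of all genes in this direction (2.55%), and 0 passed the adjusted p by edgeR, 2 by DESeq2 and 5 by limma voom. Cox5a, a subunit of cytochrome c oxidase, had 4883, 4818, 4256, 4760 and 6047 against 4101, 3509, 3782 and 3962 (0.38 ± 0.11, adjusted p = 0.0882). Ndufa4 had 7759, 7705, 7681, 7968 and 10427 against 6604, 6152, 6503 and 6427 (0.39 ± 0.11, adjusted p = 0.0885). Ndufs3 and Ndufs4 of complex I had log2 fold changes of 0.28 and 0.24.

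The score of the list did not overlap, with 7.19 to 7.52 in the PYY3-36 + liraglutide group, where replicate 10 was highest, and 6.99 to 7.12 in the PYY3-36 group. It was 7.32 to 7.54 with saline, above all animals on PYY3-36 alone, and 7.06 to 7.52 with liraglutide alone. Without PYY3-36 + liraglutide replicate 10 the median was 0.15 and 16 members were at an unadjusted p under 0.05, against 17 without PYY3-36 replicate 2 and 23 without PYY3-36 replicate 4, and with the meningeal score as a covariate the median was 0.16 and 3 were. Liraglutide alone against saline gave a median of -0.11. Cytosolic ribosomal proteins, as abundant a group, had a median of -0.02 and 0 of 58 at an unadjusted p under 0.05.

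Of 21 genes of cholesterol and fatty acid synthesis 20 had a negative log2 fold change, the median was -0.33, and 9 were lower and 1 higher at an unadjusted p under 0.05 (10.5% and 8.26% of all genes). The 9 became 3 without PYY3-36 replicate 2 and 5 without PYY3-36 replicate 3 or PYY3-36 + liraglutide replicate 8. By the adjusted p, 0 passed by edgeR, 1 was lower by DESeq2, and 7 were lower and 1 higher by limma voom. Scd, a fatty acid desaturase, had 902, 808, 784, 912 and 878 against 1420, 1803, 1474 and 1158 (-0.75 ± 0.18, adjusted p = 0.0591). The groups did not overlap, and the saline mean of 955 was near that of the animals with liraglutide. Dhcr7, of the last step of cholesterol synthesis, had 622 ± 97.1 against 888 ± 103 (-0.50, adjusted p = 0.125). Scd2 (-0.36) and the regulator Srebf1 (-0.39) overlapped. The score of myelin and oligodendrocyte genes, which use these lipids, ran from 9.07 to 9.87 with and from 9.51 to 10.9 without liraglutide. Its part in the result was not tested.

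Of the inflammatory list, all 14 tested members had a negative log2 fold change, the median was -0.45, 6 were lower at an unadjusted p under 0.05 (10.5% of all genes were), 5 did not overlap (4.70% of all genes in this direction), and 0 passed the adjusted p by edgeR, 1 by DESeq2 and 3 by limma voom. Il1b had 10.1, 0, 6.88, 3.29 and 2.13 against 9.28, 12.9, 20.8 and 32.7 (-2.05 ± 0.59, adjusted p = 0.0882). Il1r1, its receptor, had 178, 135, 143, 218 and 172 against 390, 264, 394 and 447 (-1.12 ± 0.35, adjusted p = 0.104). Tnfrsf1a (-0.58) and Il6st, the shared receptor chain of the interleukin-6 family (-0.25), did not overlap either. The microglial score overlapped (4.76 to 5.24 vs. 5.02 to 5.19), and with the meningeal score as a covariate the median was -0.22 and 1 member was at an unadjusted p under 0.05.

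Leptin and insulin signalling had 2 members higher and 7 lower of 30 at an unadjusted p under 0.05 (6.67% and 23.3%, against 8.26% and 10.5% of all genes). By the adjusted p, 0 passed by edgeR, 4 were lower by DESeq2, and 2 were higher and 4 lower by limma voom. Socs3, the feedback inhibitor of leptin signalling, had 44.5, 37.3, 40.3, 35.5 and 28.7 against 125, 41.0, 123 and 72.9 (-1.26 ± 0.35, adjusted p = 0.0818), and only PYY3-36 replicate 2 overlapped. Igfbp2 (630 ± 261 vs. 2922 ± 1150, -2.19, adjusted p = 0.120) did not overlap, but with the meningeal score as a covariate its log2 fold change was 0.077. Akt2 had -0.55. Of 27 members of cAMP signalling, the pathway of the GLP-1 receptor, 4 were higher and 2 lower at an unadjusted p under 0.05. These were 14.8% and 7.41%, against 8.26% and 10.5% of all genes. By the adjusted p, 0 passed by edgeR or DESeq2, against 1 higher and 2 lower by limma voom. Those at an unadjusted p under 0.05 included the kinase subunits Prkacb (0.41) and Prkar2b (0.97), the cAMP sensor Rapgef3 (-0.31) and the factor Crem (-0.37).

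At an unadjusted p under 0.05, 8.26% of all genes were higher and 10.5% lower. Immediate early genes, which follow neuronal activity, had 1 higher and 3 lower of 20 (5% and 15%), with Fosb at 1.11, Ier5 at -0.70, Nr4a2 at -1.29 and Nr4a3 at -1.15. Of 13 glucocorticoid-responsive genes 3 were lower at the same threshold (23.1%), among them Cdkn1a (-0.94) and Errfi1 (-0.49). Of 15 genes of energy sensing 2 were higher and 2 lower by unadjusted p (13.3% each). Of 20 genes of endoplasmic reticulum stress 2 were higher (10%). Of 19 clock genes 0 were at an unadjusted p under 0.05. None of these lists had a member past the adjusted p by edgeR. By DESeq2 1 glucocorticoid-responsive gene was lower. By limma voom 1 immediate early gene and 2 genes of energy sensing were lower, and 1 gene of endoplasmic reticulum stress was higher.

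**Figure D4:**
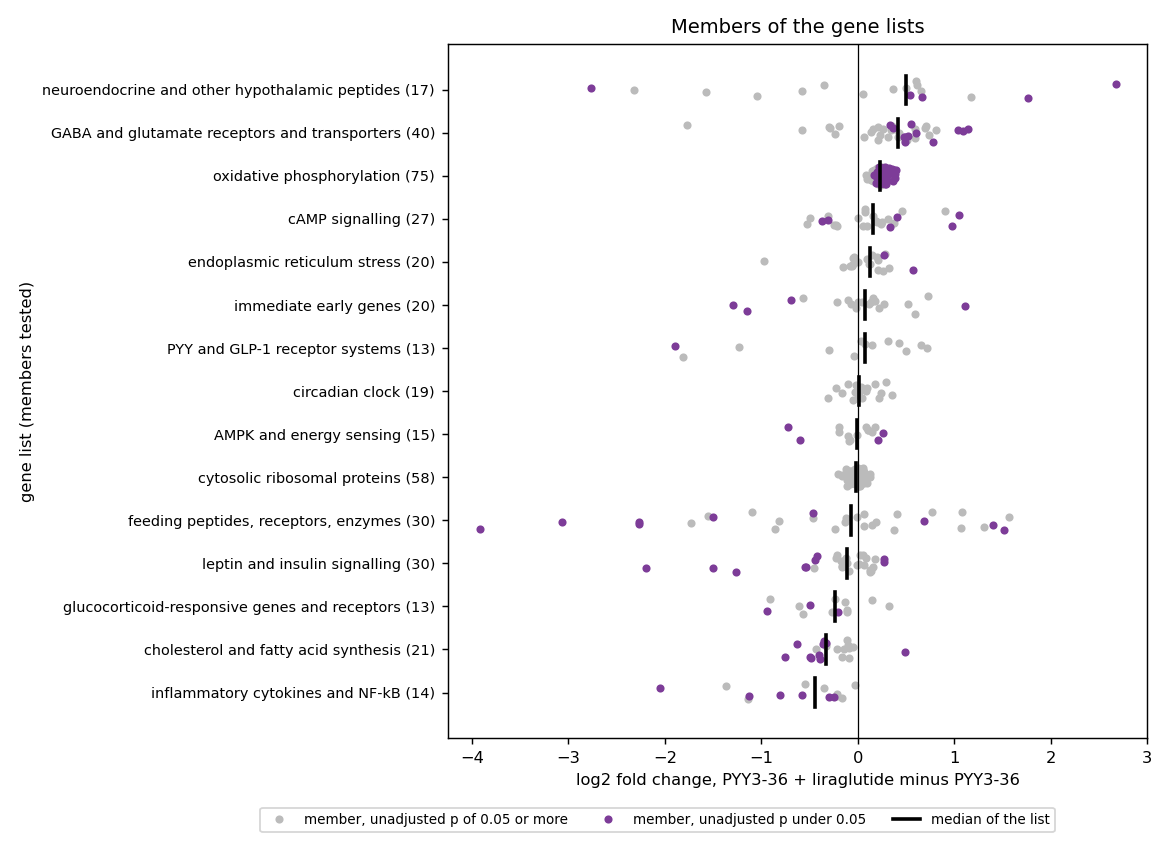
log2 fold change (PYY3-36 + liraglutide minus PYY3-36) of every tested member of 15 gene lists, 1 point per gene, coloured by an unadjusted p under 0.05, with a bar at the median of each list. The 75 genes of oxidative phosphorylation all lie above 0 around a median of 0.23, and the 14 inflammatory genes all lie below 0 around -0.45.

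Whether liraglutide acted differently in the presence of PYY3-36 was tested as the difference between its effect with PYY3-36 and its effect without it (liraglutide minus saline). In the latter, 1 of 20628 genes was called (0.00485%), Nwd2, and 1048 had an unadjusted p under 0.05. Nwd2 was a member of the habenula marker list, whose score ran from 1.94 to 5.11 with saline and from 1.75 to 2.21 with liraglutide alone. The part of habenular RNA in this call was not tested beyond the fit with marker scores as covariates. Of the 15 genes called on top of PYY3-36, 10 had the same sign in liraglutide minus saline. Of all 35 genes past the adjusted p on top of PYY3-36, 15 had the same sign. None of these genes passed the adjusted p in liraglutide minus saline, so the counts of signs cannot show whether the effects were alike. The difference itself passed the adjusted p in 6 genes (0.0291%), of which 3 had a difference over 1 on the log2 scale (0.0145%), and 3259 had an unadjusted p under 0.05.

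Gpr183 had the largest of these differences (-3.06 ± 0.57, adjusted p = 0.0452): it fell on top of PYY3-36 and stood at 64.8, 18.7, 27.1, 39.2 and 75.1 with liraglutide alone and 4.10, 23.1, 17.2, 26.4 and 36.2 with saline, which overlapped. Axl, a receptor tyrosine kinase for Gas6, had 526 ± 104 with liraglutide and PYY3-36, 770 ± 101 with PYY3-36, 686 ± 177 with liraglutide and 434 ± 64.8 with saline, a difference of -1.19 ± 0.22 (adjusted p = 0.0452). The long noncoding RNA LOC103693584 went the other way, with 692 ± 46.5, 472 ± 65.3, 514 ± 62.9 and 741 ± 131 in the same order of groups (1.10 ± 0.17, adjusted p = 0.0255), so that it was higher in animals with both treatments or neither than in animals with 1. Apoo, March9 and Maneal had differences of 0.64, 0.74 and 0.76. The count of 3 was 0 without PYY3-36 replicates 1, 2 or 3 or without PYY3-36 + liraglutide replicates 7 or 9, each left out alone, and 28 without PYY3-36 replicate 4.

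**Figure D5:**
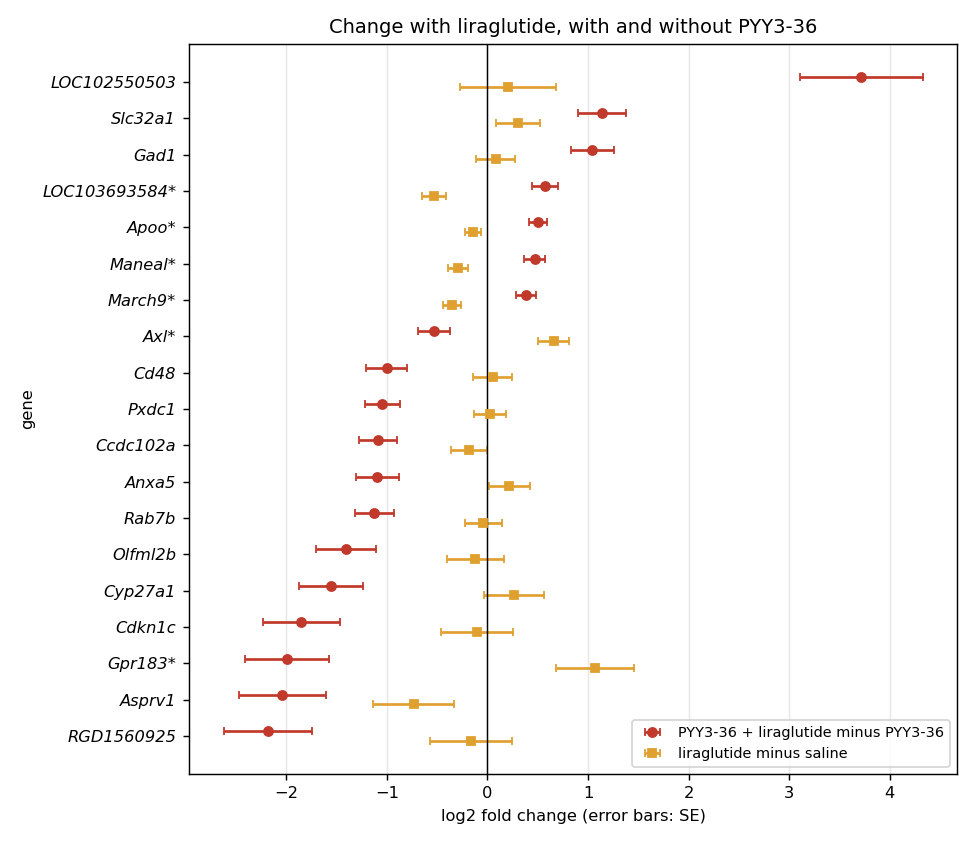
log2 fold change with SE for liraglutide on top of PYY3-36 (circles) and liraglutide against saline (squares) in 14 called genes, without Gh1, and in the genes whose effects differed, which are marked by an asterisk. Called genes moved by more than 1 on top of PYY3-36 and lie near 0 in liraglutide minus saline, except Gpr183 at 1.07 and Asprv1 at -0.73.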

How the data were processed

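RNA of whole hypothalamus was sequenced as stranded poly-A libraries, 1 per animal. Per the methods and the processing notes, the authors demultiplexed with bcl2fastq 2.20.0.422, trimmed with cutadapt (1.16 and later versions), aligned to Rnor_6.0 with STAR 2.7.2b and counted with featureCounts 1.6.4. The deposited values are estimated counts per gene that are not all whole, because reads could be shared between genes. They were rounded to whole numbers, and reads of near-identical genes remain uncertain. Groups and batches came from the labels, and doses, ages and times from the study's methods.

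All 28 libraries of batch B, with 1 mean for each of 6 groups, were fitted with edgeR 4.0.16 (R 4.3.3), TMM scaling and the robust quasi-likelihood test, on genes passing filterByExpr (minimum count 10, minimum total 15), with Benjamini-Hochberg adjustment over all of them. Normalized counts were divided by DESeq2 1.42.0 size factors, and errors are SD for levels and SE for log2 fold changes. Labels do not say more of the animals than their group, so p-values measure the spread between these animals. Named were up to 15 called genes in each direction, where fewer than 10 were called the genes of smallest p with an absolute log2 fold change over 1 (without LOC, RGD or repeated symbols), the 4 of smallest p of each gene list, all of the receptor systems, Pomc, Agrp, Npy and Cartpt, 2 genes of each marker list, and up to 5 called for the difference. Genes past the adjusted p with a smaller fold change, Gad2, Pbxip1, Nwd2 and 4 transcription factors were named after their values were seen. Members and lists were chosen with earlier results of these data known. Older symbols were matched through RefSeq synonyms. Alternatives were other scalings, filters, tools (DESeq2 and limma 3.58.1 voom with sample weights), samples and covariates. The script was tested on simulated data. Figures were drawn with Python 3.11.15.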

Additional observations from a re-analysis of the deposited data

Results flagged for a closer look

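Within the groups of 4 and 5 libraries, 33 of 266 sets of values examined (12.4%) had a library far from the others. About 1 in 20 would be expected of independent, normally distributed values. These counts and scores of chosen genes came from the same 9 libraries, so that this rate is no measure of chance here. PYY3-36 + liraglutide replicate 10 and PYY3-36 replicate 2 held 9 each. In normalized counts, PYY3-36 + liraglutide replicate 10 stood apart for Ndufa4 (10427), Th (1256), Nr4a2 (234) and Ramp2 (1375). It also did for Gh1, near the floor, at 2.13 against 0 in the rest of its group. In scores it stood apart for GABA and glutamate receptors and transporters (5.79), cytosolic ribosomal proteins (7.98), leptin and insulin signalling (4.24) and oxidative phosphorylation (7.52). PYY3-36 replicate 2 stood apart for Pianp (2028), Rpp25 (149), Tulp3 (742), Nr4a3 (663), Ramp2 (452), Eno2 (10196) and Neurod6 (2725), and in the scores of endoplasmic reticulum stress (5.35) and neuroendocrine peptides (2.69). PYY3-36 + liraglutide replicate 9 was high for Agrp (42.1), Pomc (765), Glp2r (5.26), Igf2 (2946) and the pituitary score (0.682) and low for P4htm (2838). PYY3-36 + liraglutide replicate 7 was low for Rab7b (130), Ccdc102a (49.5) and LOC103692811 (641) and high in the choroid plexus score (2.82). PYY3-36 replicate 4 was high for Mc4r (150.0), Pyy (10.9), Cntnap3b (266) and Slc5a7 (1373), and PYY3-36 replicate 3 for Gh1 (7302).

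The effect of liraglutide on top of PYY3-36 differed from its effect against saline in 6 genes by edgeR's test of the difference, on the log2 scale by 1.10 for LOC103693584 (adjusted p = 0.0255) and, each with an adjusted p of 0.0452, by 0.74 for March9, 0.64 for Apoo, -1.19 for Axl, -3.06 for Gpr183 and 0.76 for Maneal.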

How the results depend on the processing

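No paired analysis was possible because the libraries of both groups share no replicate numbers. The counts of genes are given in the order called (15), past the adjusted p alone (35), called in liraglutide minus saline (1) and called for the difference of the liraglutide effects (3). They were 37, 84, 1 and 1 with RLE size factors, 48, 117, 0 and 6 with upper-quartile scaling, 5, 8, 0 and 2 with every gene of at least 1 count, 40, 109, 1 and 4 with a minimum count of 50, 329, 783, 4 and 188 by DESeq2, and 520, 1734, 0 and 30 by limma voom. With only the 9 libraries the first 2 were 244 and 405. Over all 65 libraries they were 1, 1, 0 and 0 with a batch term and 1, 1, 2 and 0 with 1 mean per group and batch. With 4 marker scores, or with the meningeal score alone, all 4 counts were 0. Leaving out each library in turn gave 0 to 123, 0 to 303 and, for the difference, 0 to 28. Without both libraries least like their group (PYY3-36 replicate 2 and PYY3-36 + liraglutide replicate 10) the first, second and last counts were 0, and without PYY3-36 replicates 1 and 3 they were 3, 4 and 0. These last 2 settings and the meningeal covariate were chosen after seeing the data, as were the 65-library, covariate and left-out-library fits of liraglutide minus saline and of the difference. The 3862 genes at an unadjusted p under 0.05 became 1860 over 65 libraries with a batch term, 1317 with 4 covariates, 2241 with the meningeal score, 2485 without both least alike libraries and 2303 to 4063 without 1 library. Of them 44.1% were higher, against 30.8% with upper-quartile scaling and 64.2% with 4 covariates. Genes that missed the threshold changed sign: with 4 covariates Il6st (0.054), Ramp1 (-0.091), Npy (-0.23) and Glp1r (0.52), with the meningeal score Igfbp2 (0.077) and Glp1r (0.31), by limma voom Ramp2 (-0.20), Cartpt (-0.55) and Ramp3 (-0.18), with upper-quartile scaling Ramp3 (-0.0034), and over 65 libraries with a batch term Gipr (0.094) and Ramp3 (-0.12). Without PYY3-36 replicates 1 and 3 this held for Th (1.94), Pomc (1.47), Agrp (0.64), Glp2r (1.58), Glp1r (1.21), Pyy (-0.34), Gipr (0.34) and Ramp3 (-0.042), and without both least alike libraries for Pyy (-0.13), Ramp2 (-0.34), Cartpt (-0.80) and Ramp3 (-0.12). Leaving out 1 library, log2 fold changes ran from -0.70 to 0.35 for Glp1r, -0.15 to 0.16 for Ramp2, -0.40 to 0.56 for Cartpt, -0.19 to 0.10 for Gipr and -0.27 to 0.18 for Ramp3. The causes were not tested.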
